A study of Mus musculus with 6 samples.

Results

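The cytosolic ribosomal protein genes were examined here as 1 group, chosen by symbol alone. Every gene whose symbol is Rpl or Rps followed by a number and at most a trailing a, x or l, together with Rplp0, Rplp1, Rplp2 and Rpsa, was taken once per Ensembl ID, which gave 82 of the 20071 genes in the count table. Of these, 50 belong to the large subunit (Rpl and Rplp) and 32 to the small subunit (Rps and Rpsa). Fau, Rack1 and Rps3a1, which also encode proteins of the ribosome, have other symbols and were left out of the group. Mesenchymal stem cells (MSCs) are stromal cells of bone marrow that can form osteoblasts, and they were taken from femurs of 6-week-old mice. The control cells came from Pcif1fl/fl mice (labelled WT, n = 3 libraries), so that they carry the floxed allele too, and the other cells from Prrx1-Cre;Pcif1fl/fl mice (labelled CKO, n = 3 libraries). Prrx1-Cre is a recombinase active in limb mesenchyme, here aimed at exons 5 to 7 of Pcif1, and cells of other lineages in the culture would keep the gene. All cultures had 7 days of osteogenic medium with dexamethasone at 100 nM, β-glycerophosphate at 5 mM and ascorbic acid at 50 µg/mL before poly(A) RNA was sequenced. The labels do not say whether the libraries of a genotype came from separate mice, and p-values then measure only the spread between these libraries.

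A ribosome holds about equal numbers of each of its proteins, and the genes for them are usually expressed together at a high level. Their mRNAs are known as TOP mRNAs, which begin at a C followed by a run of pyrimidines and whose translation depends on mTORC1. PCIF1 is the enzyme that methylates an adenosine when it is the first transcribed base of a capped mRNA. The comparison of CKO with WT therefore asks how genes whose mRNAs are known to begin mostly at another base were expressed when Pcif1 was targeted.

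The libraries held 20258209 to 28227696 counts. Pcif1 itself was at 37.8 to 39.7 CPM (counts scaled to library size with edgeR's TMM factors) in CKO and 39.3 to 42.8 CPM in WT libraries, and counts per gene do not show whether exons 5 to 7 were present. Xist was at 232 to 443 CPM in WT and 0.722 to 1.79 CPM in CKO libraries, so that the sex of the mice and the genotype cannot be told apart. The 8 mesenchymal markers summed to 10370 to 14040 CPM and 8 macrophage markers to 28720 to 32050 CPM, so that the cultures held macrophage RNA beside that of MSCs. Of other cells, 4 neutrophil genes summed to at most 1.44 CPM, 2 lymphoid genes to at most 0.175 CPM, 2 erythroid genes to at most 0.577 CPM and 5 endothelial genes to at most 35.9 CPM. The 7 osteoblast markers summed to 10090 to 20290 CPM and the 5 adipocyte markers to 415 to 603 CPM. In such bulk samples, fewer cells of a type and less RNA per cell cannot be told apart. WT replicate 3 stood apart from the other 5 libraries, in these genes and beyond them: its mitochondrially encoded genes took 3.63% of counts, against 1.40% to 1.57% in the others. Results that rest on it are given with and without it.

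To show where these mRNAs start, 8 upstream windows are printed from RefSeq (GRCm38.p6): those of the genes with the lowest and the highest values in WT replicate 3 among members for which a window was at hand, that of Rplp0, and that of Rpl39l, which differed between genotypes. Each runs 5′ to 3′ over 60 bases before and 20 bases from the listed start, so that the start is base 61 of 80. Capitals mark a C followed by at least 5 C or T that begins no more than 10 bases before the start, or the letters CCGGAAG on either strand, a core bound by ETS factors.
Rps19, chr7:24884532-24884611, plus strand: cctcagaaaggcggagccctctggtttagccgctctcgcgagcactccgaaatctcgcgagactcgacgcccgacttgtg
Rps21, chr2:180257319-180257398, plus strand: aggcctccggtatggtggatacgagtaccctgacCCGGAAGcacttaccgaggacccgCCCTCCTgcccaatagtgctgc
Rps16, chr7:28350629-28350708, plus strand: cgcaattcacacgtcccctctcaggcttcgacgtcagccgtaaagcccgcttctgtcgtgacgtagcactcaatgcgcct
Rpl28, chr7:4792905-4792984, plus strand: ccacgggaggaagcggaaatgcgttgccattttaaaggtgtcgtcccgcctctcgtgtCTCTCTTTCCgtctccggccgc
Rps6, chr4:86857348-86857427, minus strand: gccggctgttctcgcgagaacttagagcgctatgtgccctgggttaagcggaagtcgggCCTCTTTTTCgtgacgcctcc
Rps26, chr10:128626487-128626566, minus strand: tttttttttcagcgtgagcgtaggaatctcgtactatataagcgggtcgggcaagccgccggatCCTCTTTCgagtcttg
Rplp0, chr5:115559407-115559486, plus strand: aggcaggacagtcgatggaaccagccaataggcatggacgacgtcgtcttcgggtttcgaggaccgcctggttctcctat
Rpl39l, chr16:10170168-10170247, plus strand: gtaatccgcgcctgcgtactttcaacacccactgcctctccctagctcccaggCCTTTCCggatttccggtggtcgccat

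RefSeq listed a window for 60 of the 82 genes, with 72 starts in all, and each full window spans 250 bases before and 50 bases from a start. A C followed by at least 5 pyrimidines, beginning anywhere from 10 bases before the start to the end of the window, was found in 52 of the 60 genes (86.7%), against 42.9% of the 27025 mouse genes with a window. A C at the listed start itself, followed by at least 4 pyrimidines, was found in 14 (23.3%), against 3.01% of all genes. The letters CCGGAAG stood on either strand in 25 (41.7%), against 9.93% of all genes. The letters AAGATGG, the core of the YY1 motif, were found on either strand in 9 (15.0%), against 7.28%, and TATAAA on either strand in 7, or 11.7%, against 15.7%. The listed first base was A at 14 of the 72 starts (19.4%), C at 21 (29.2%), G at 27 (37.5%) and T at 10 (13.9%), against 34.4% A and 16.3% C over all listed starts. In none of the 8 printed windows does a marked tract begin exactly at the listed start, and those of Rps19, Rps16 and Rplp0 hold none. In the windows of Rps21, Rpl28 and Rps6, however, the tract spans the listed start, itself a C followed by at least 4 pyrimidines. RefSeq lists 3 starts for Rps19 and 2 for Rps21, of which 1 is printed for each, and which start these cells used was not measured.

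The 82 genes took 2.51% of all counts in WT replicate 1 (95% Wilson interval 2.51 to 2.52), 2.30% in replicate 2 (2.29 to 2.30) and 1.38% in replicate 3 (1.37 to 1.38). They took 2.25%, 2.24% and 2.30% in CKO replicates 1 to 3. WT replicate 3 was low. The other 5 libraries lay at 2.32% ± 0.112 (SD, n = 5), and the share in WT replicate 3 was 59.4% of that mean. Among those 5, WT replicate 1 was the highest, and the rest lay at 2.24% to 2.30%. The large subunit took 1.31% to 1.47% of counts in those 5 libraries and 0.842% in WT replicate 3. The small subunit took 0.924% to 1.05% and 0.534% respectively, so that there were 1.41 to 1.45 large-subunit counts per small-subunit count in the 5 libraries and 1.58 in WT replicate 3. The intervals cover counting error only.

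**Figure D1:**
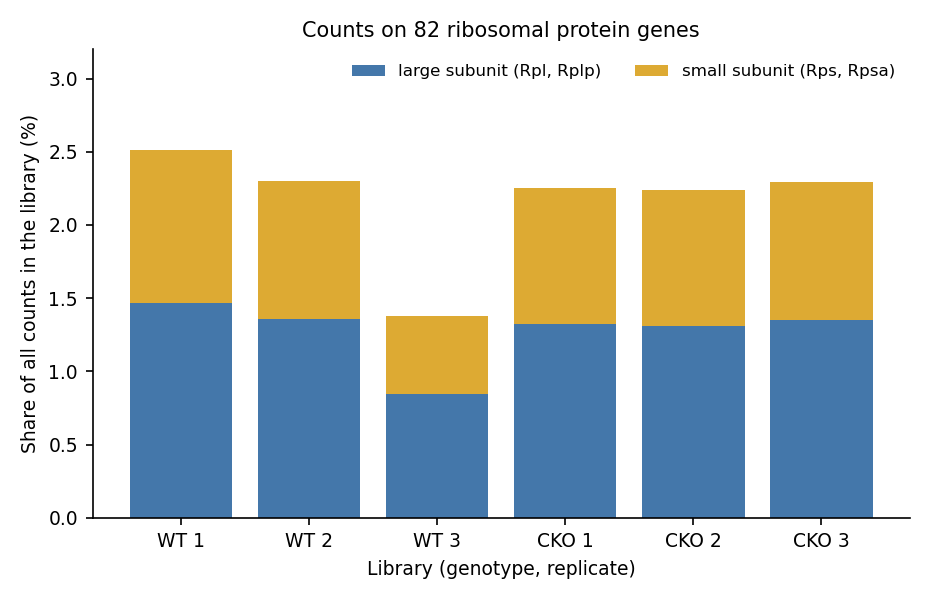
Bars give the percentage of all counts in each library that fell on the 82 ribosomal protein genes, split into large (blue) and small (yellow) subunit. WT replicate 3 stands at 1.38% and the other 5 libraries at 2.24% to 2.51%.

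Between genotypes the share was 2.06% ± 0.604 in WT and 2.26% ± 0.0307 in CKO (SD, n = 3 each), a difference of 0.200 percentage points that was smaller than the spread of WT (exact two-sided permutation test, p = 1, where 3 libraries against 3 cannot go below 0.1). Without WT replicate 3 the direction turned: WT stood at 2.41% ± 0.153 (n = 2), and CKO was lower by -0.143 percentage points (CKO minus WT, exact permutation test, p = 0.1, the smallest that 2 against 3 libraries allow). Both remaining WT libraries then lay above all CKO libraries, although WT replicate 2 and CKO replicate 3 both round to 2.30%. The direction of the share between genotypes thus rested on WT replicate 3. Without that library, WT replicate 1 alone stood apart, at 2.51%, with the rest at 2.24% to 2.30%.

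Levels of single genes spanned a wide range within the group. The 79 genes that passed edgeR's expression filter had mean levels of 2.06 to 1276 CPM, with a median of 237 CPM. The 6 with the highest mean, Rplp0, Rpsa, Rpl4, Rpl10, Rpl3 and Rplp1, held 21.3% of the group's counts. Per kilobase of coding sequence, the order of these 6 changed: the mean level was 1716 CPM per kb for Rplp1, 1341 for Rplp0, 957 for Rpl10, 916 for Rpsa, 578 for Rpl4 and 487 for Rpl3. The 3 genes that did not pass the filter were Rpl24, with 7 to 11 counts a library, Rpl32l, with 1 to 8, and Rpl3l, a paralog known from muscle, with 7 counts in WT replicate 1 and 0 in the other 5 libraries, each of which allows up to 3 counts. Of the exonic bases of Rpl24, 71.5% overlap another annotated gene on the same strand, as do 70.8% of those of Rps10 (1.33 to 2.79 CPM) and 59.3% of those of Rpl13a (13.6 to 15.9 CPM). Low counts there cannot be told from reads set aside or given to the other gene. Rpl32l, Rpl6l and Rps4l are annotated as pseudogenes, and of these Rpl6l was at 20.04 to 23.37 CPM in all 6 libraries.

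The stalk proteins form the flexible arm of the large subunit that recruits translation factors. Rplp0 (ENSMUSG00000067274, chr5:115559467-115563727), the base of the stalk, was at 1489, 1353 and 916 CPM in WT replicates 1 to 3 and at 1326, 1252 and 1319 CPM in CKO replicates 1 to 3. The CKO libraries lay between WT replicate 3 and the other WT libraries. Its log2 fold change of CKO against WT was 0.05 (standard error 0.17, adjusted p = 0.886 by edgeR's quasi-likelihood test, adjusted over all genes tested after Benjamini and Hochberg), and -0.13 without WT replicate 3 (standard error 0.06, adjusted p = 0.166). Rplp1, an acidic protein on the arm, was at 723, 633 and 169 CPM in WT and 678, 643 and 675 CPM in CKO. Its partner Rplp2 was at 285, 245 and 83.4 CPM in WT and 271, 270 and 258 CPM in CKO. In Rplp1 and Rplp2, WT replicate 3 held less than 50% of the mean of the other libraries, and in Rplp0 it held more than that.

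WT replicate 3 was the lowest of the 6 libraries for 73 of the 79 genes (92.4%), against 32.1% of all 13733 genes tested. It was the highest for 1 gene, Rps26, where 32.1% of all genes had it highest, and lay within the others for 5. On the log2(CPM + 0.5) scale its difference from the mean of the other 5 libraries had a median of -0.83 over the group (quartiles -1.22 and -0.43), against 0.01 over all genes tested (quartiles -0.30 and 0.29). In 33 genes it held less than 50% of the mean of the other 5, and in 7 between 90% and 110% of it. Each of the other libraries was set against its own 5 counterparts in the same way. Their medians lay between 0.10 and 0.29, and their standard deviations over genes between 0.15 and 0.18, where that of WT replicate 3 was 0.61. These counterparts include WT replicate 3, whose low and uneven values raise the medians and enter the standard deviations. WT replicate 1 had the highest of these medians, 0.29, against 0.02 over all genes tested. The 5 libraries other than WT replicate 3 varied by a median coefficient of 5.59% per gene.

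**Figure D2:**
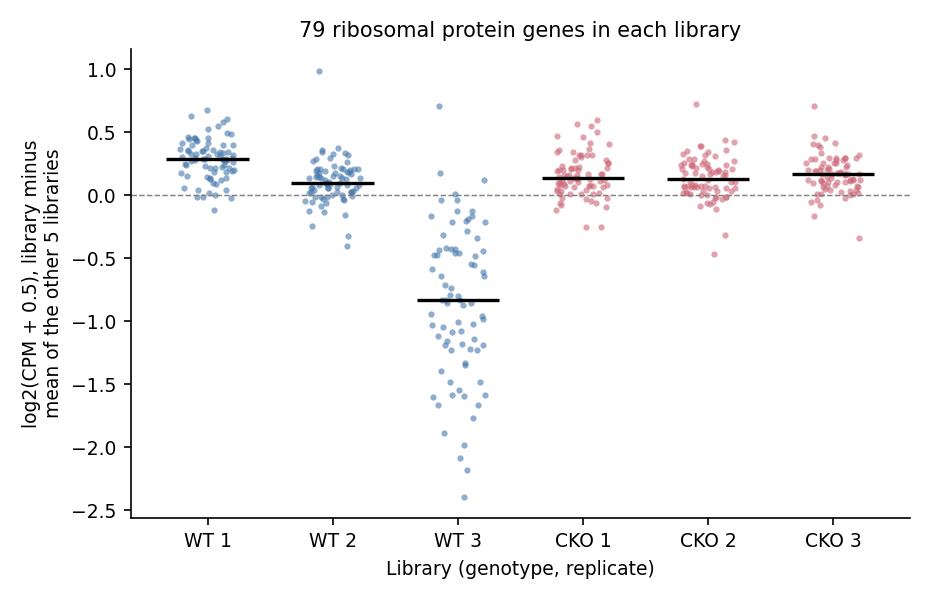
Each point is 1 of 79 ribosomal protein genes, placed by log2(CPM + 0.5) in that library minus the mean of the other 5 libraries, and black lines are medians. WT replicate 3 has a median of -0.83 and a spread of 0.61 (SD), while the other libraries have medians of 0.10 to 0.29 and SDs of 0.15 to 0.18. The mean that each of those libraries is set against includes WT replicate 3, which raises their medians.

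The shift in WT replicate 3 was not one of equal size. Rps19, a small-subunit protein known from Diamond-Blackfan anaemia, was furthest down: it was at 57.3 CPM there and at 285 to 325 CPM in the other 5 libraries, a difference of -2.39 on the log2(CPM + 0.5) scale. Rps21 was at 11.6 CPM against 51.2 to 59.9 CPM (-2.18), and Rps16 at 75.4 CPM against 304 to 365 CPM (-2.09). Rps14, known for its loss in a myelodysplastic syndrome, was at 116 CPM against 408 to 483 CPM. At the other end, Rps26, a protein near the channel where mRNA leaves the ribosome, was at 466 CPM in WT replicate 3 and at 269 to 317 CPM elsewhere (0.71). Rps4l, which also differed between genotypes, was at 23.8 CPM against 16.2 to 31.9 CPM (0.18). Rps6, the protein phosphorylated by the S6 kinases, was at 374 CPM against 358 to 393 CPM, and Rpl29 at 158 CPM against 134 to 158 CPM. The counts of Rps26 and Rps19 were about equal in the other libraries, at 0.850 to 1.03 counts of Rps26 per count of Rps19, and stood at 8.14 in WT replicate 3. For Rps6 the same quotient went from 1.16 to 1.30 in the others to 6.52.

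**Figure D3:**
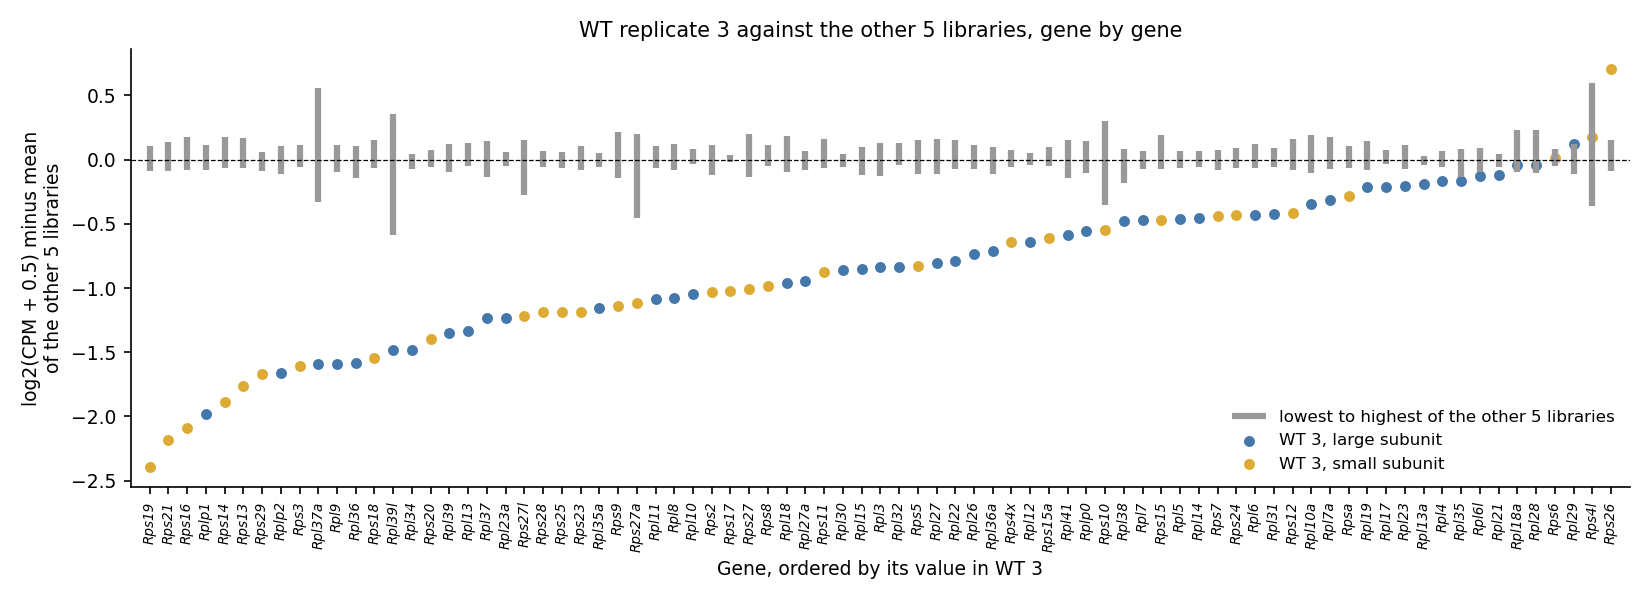
Points give log2(CPM + 0.5) of WT replicate 3 minus the mean of the other 5 libraries for 79 genes in rising order, and grey bars span the lowest to the highest of those 5. Points run from -2.39 (Rps19) to 0.71 (Rps26), and 73 lie below their grey bar.

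The 32 small-subunit genes had a median difference of -1.03 in WT replicate 3 (29 lowest of 6) and the 47 large-subunit genes tested one of -0.73 (44 lowest). The 48 members with a coding sequence under 500 bases had a median of -1.02, and the 29 longer ones -0.56, against -0.29 over all 1162 genes tested with a coding sequence under 500 bases. Across genes, Spearman's rho of the difference with coding length was 0.36 over 77 members and 0.29 over 13049 genes, and with transcript GC content 0.10 over 79 members and -0.25 over 13730 genes. These values are descriptions, since all genes share the same 6 libraries. Among the 60 members with a mean of at least 100 CPM, WT replicate 3 was lowest in 55, with a median of -0.83, whereas over all 2117 genes at that level the median was 0.00. Other rows have Rpl or Rps symbols ending in -ps and a number, of which Rpl10-ps3 and Rpl9-ps6 are annotated as protein coding. These rows held 0.787 to 0.858 counts per 100 counts of the group in the other 5 libraries and 1.22 in WT replicate 3.

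Related genes differed in how they stood in WT replicate 3, where 32.1% of all genes tested were lowest and 32.1% highest. The 7 tested of 11 ribosome-related genes with other symbols had a median of -0.72, and all 7 were lowest there. Among them, Fau, whose product carries the small-subunit protein eS30, was at 137 CPM against 313 to 375 CPM, and Rpl22l1, a paralog of Rpl22, at 3.80 CPM against 19.8 to 23.2 CPM, while Rpl22 itself was at 66.6 CPM against 110 to 128 CPM. Rps3a1, which the symbol rule leaves out and which is not among those 7, was at 336 CPM against 529 to 569 CPM. The 77 proteins of the mitochondrial ribosome, a separate set of genes, had a median of -0.37, with 52 lowest and 11 highest in WT replicate 3. The 18 translation factors with TOP mRNAs had a median of -0.07, inside the quartiles of all genes, with 9 lowest and 6 highest. The median was -0.17 for 44 ribosome biogenesis genes, with 24 lowest and 9 highest, and -0.23 for 20 genes of RNA polymerase I and its factors, with 10 lowest and 3 highest. The 11 mitochondrially encoded genes tested went the other way, with a median of 1.23 and 10 highest there. No test of the difference between these groups was made. With mitochondrially encoded genes taken out of the totals, the share of the 82 genes in WT replicate 3 was 1.43%, against 2.27% to 2.55% in the others, and 72 members were lowest there. With a correction of all counts for transcript length and GC content, chosen for this measure after seeing the data, the median of the members was -0.47, 58 were lowest (73.4%) and 14 highest, against a median of -0.02 and 32.9% lowest over all genes.

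Between genotypes, 1 of the 79 genes fell and 1 rose in CKO at an adjusted p under 0.05, against 4.51% and 2.88% of the 13733 genes tested. The 2 were Rps4l and Rpl39l, both paralogs with low levels. The other 77 genes had adjusted p-values of at least 0.293 and log2 fold changes of no more than 0.52 in size, with a median standard error over the group of 0.22. Of the 79 log2 fold changes, 70 were above 0, with a median of 0.18 (quartiles 0.09 and 0.28), against 0.00 over all genes. Without WT replicate 3, 2 of 80 fell and 2 rose, against 10.4% and 11.1% of 13905 genes, 54 of 80 were below 0, and the median was -0.04 (quartiles -0.09 and 0.02). The sign changed in 45 of the 79 genes, each time from above to below 0, and the median standard error went from 0.22 to 0.07. The fold changes of most of these genes with all 6 libraries therefore carried the low values of WT replicate 3.

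**Figure D4:**
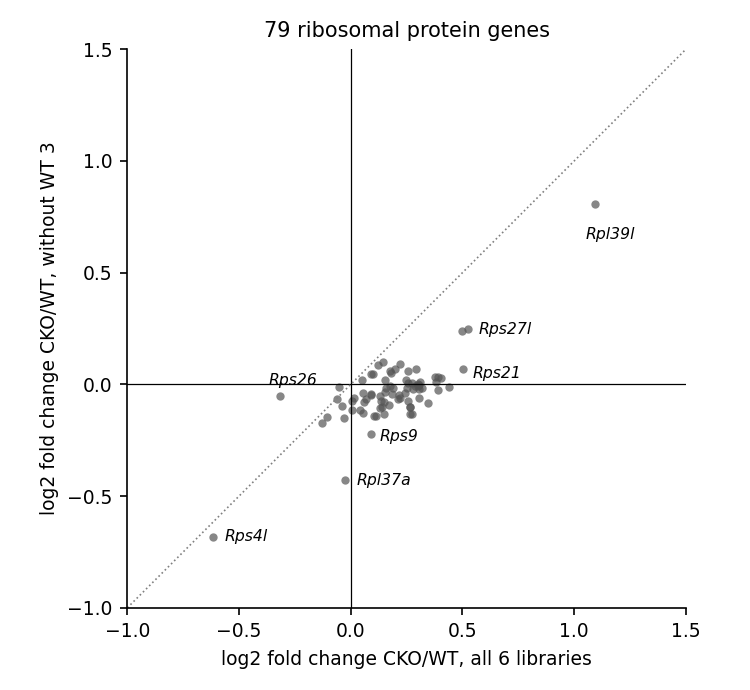
Each point is 1 of 79 genes, with its log2 fold change of CKO against WT from all 6 libraries (x axis) and without WT replicate 3 (y axis), and the dotted line marks equal values. The bulk of points lies right of 0 (median 0.18) and about 0 in height (median -0.04). The sign changes in 45 of the 79 genes, and Rps4l, Rpl39l and Rps27l are among those that keep their direction.

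Rpl39l (ENSMUSG00000039209, chr16:10170226-10174911), a paralog of Rpl39 known from the testis, rose in CKO. It was at 9.39, 7.87 and 3.98 CPM in WT replicates 1 to 3 and at 14.2, 15.6 and 15.4 CPM in CKO, from 111 to 215 and 313 to 320 counts. All CKO libraries lay above all WT libraries. The log2 fold change was 1.09 (standard error 0.27, edgeR's adjusted p = 0.0494), and 0.81 without WT replicate 3 (standard error 0.13, adjusted p = 0.000255). With all 6 libraries the call was lost under total-count scaling (adjusted p = 0.0576), scaling without mitochondrially encoded genes (0.05004) and use of every deposited row (0.0505). Its namesake Rpl39 was at 84.8, 74.6 and 30.7 CPM in WT and at 75.6, 73.6 and 85.7 CPM in CKO, where the groups overlapped, with an adjusted p of 0.623.

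Rps4l (ENSMUSG00000063171, chr6:148354656-148355598), annotated as a transcribed processed pseudogene related to Rps4x, fell in CKO. It was at 31.9, 24.2 and 23.8 CPM in WT and at 18.4, 16.2 and 17.5 CPM in CKO, with every CKO library below every WT library. The log2 fold change was -0.61 (standard error 0.14, edgeR's adjusted p = 0.0379), and -0.68 without WT replicate 3 (adjusted p = 0.000561). Rps4x was at 641, 595 and 390 CPM in WT and at 598, 586 and 622 CPM in CKO, and its log2 fold change of 0.15 had a standard error of 0.17 (adjusted p = 0.658). Reads of such near copies can be given to either gene, and how the counting treated them is not given in the sources used here.

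Rps27l, a paralog of Rps27 that p53 is known to induce, was at 80.5, 67.4 and 34.7 CPM in WT and at 85.4, 90.6 and 86.3 CPM in CKO. The groups did not overlap, but its fold change of 0.52 on the log2 scale (standard error 0.26, edgeR's adjusted p = 0.293) passed the threshold only when WT replicate 3 was left out (0.25, standard error 0.08, adjusted p = 0.0367). That call was lost when transcript length and GC content were also corrected for (0.13, adjusted p = 0.260). Rps27 was at 89.5, 75.6 and 38.6 CPM in WT and at 70.9, 78.3 and 76.3 CPM in CKO. Rps9 was the second gene to fall without WT replicate 3 and was named after its value was seen: it was at 540, 482 and 210 CPM in WT and at 440, 421 and 451 CPM in CKO (log2 fold change -0.22 without WT replicate 3, adjusted p = 0.0235, and 0.09 with it). The calls of Rps4l and Rpl39l depended on which library was left out: of the 6 fits without 1 library, Rps4l was called without WT replicate 3 alone and Rpl39l without WT replicate 3 or WT replicate 1, with their directions kept in all 6.

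**Figure D5:**
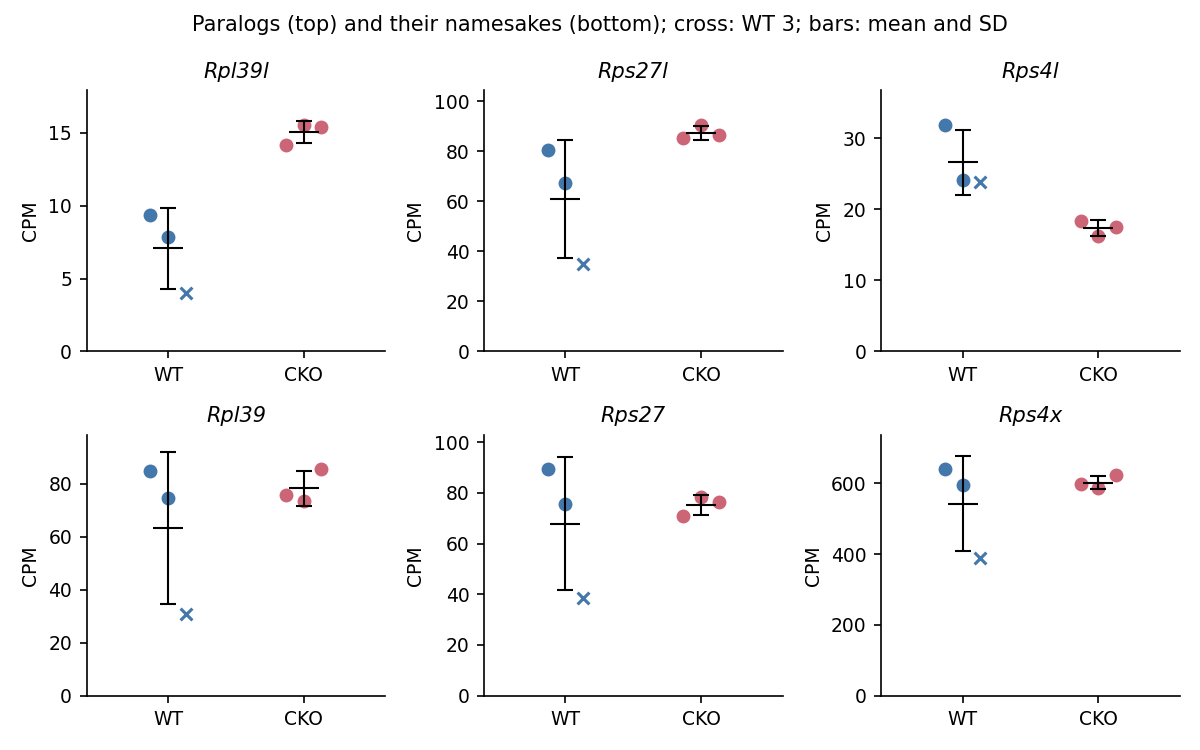
CPM of 3 paralogs (top row) and of the genes they are named after (bottom row) in each WT and CKO library, with the group mean and SD and a cross for WT replicate 3. Rpl39l and Rps27l are higher and Rps4l is lower in all 3 CKO libraries, while the groups overlap in Rpl39, Rps27 and Rps4x.

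Every CKO library lay below every WT library in 2 of the 79 genes (2.53%), against 15.7% of all genes, and above in 6 (7.59%), against 15.0%. The 2 were Rps4l and Rps6, whose log2 fold change of -0.06 had an adjusted p of 0.716, and the 6 were Rpl13a, Rpl23, Rpl30, Rpl39l, Rpl4 and Rps27l. Without WT replicate 3, 15 of 80 lay below (18.8%), against 24.3%, and 7 above (8.75%), against 24.4%. The 15 included Rplp0, Rpl3, Rpl10, Rps14, Rps6 and Rps9. These shares stood below those over all genes in both sets of libraries, a difference that was not tested. Without WT replicate 1, however, when the low replicate 3 was 1 of 2 WT libraries, 36 of 80 lay above (45.0%), against 21.2% of all genes, and 2 below (2.50%), against 20.98%.

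Rpl5, Rpl11, Rpl38, Rpsa and Rpl10 differed by less than the standard deviation of WT. Rpl5 and Rpl11, which bind MDM2 when ribosome assembly fails, were at 372, 389 and 282 CPM and at 273, 243 and 119 CPM in WT, and at 392, 383 and 406 CPM and at 250, 258 and 242 CPM in CKO. Their log2 fold changes were 0.18 (adjusted p = 0.471) and 0.24 (adjusted p = 0.641), and 0.05 and -0.04 without WT replicate 3. Of the exonic bases of Rpl5, 46.6% overlap the antisense gene Fam69a. Rpl38, known from mutants with defects of the axial skeleton, was at 41.9, 35.0 and 28.4 CPM in WT and at 40.8, 39.4 and 42.2 CPM in CKO (log2 fold change 0.22, adjusted p = 0.433, and 0.09 without WT replicate 3). Rpsa, also known as a laminin receptor precursor, was at 900, 801 and 685 CPM in WT and at 847, 823 and 810 CPM in CKO (0.06, adjusted p = 0.813, and -0.04 without WT replicate 3). The 4 X-linked members were Rpl10, Rps4x, Rpl36a and Rpl39, and none of them was called. Rpl10, which takes part in subunit joining, was at 712, 672 and 325 CPM in WT and at 657, 663 and 657 CPM in CKO, with a log2 fold change of 0.21 (adjusted p = 0.680) that was -0.07 without WT replicate 3. Outside WT replicate 3, 2 genes varied more than most: Rpl37a was at 72.1 and 112 CPM in WT replicates 1 and 2 and at 60.2 to 84.3 CPM in CKO, and Rps27a at 263 and 173 CPM and at 227 to 273 CPM. Both were named after their values were seen.

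By the listed first base, the median log2 fold change of members was 0.25 for 8 members that start at A, 0.17 for 16 at C, 0.16 for 20 at G and 0.25 for 7 at T, and -0.04, -0.03, -0.03 and -0.13 respectively without WT replicate 3. Over all genes tested the medians were 0.00 for 2601 genes at A, 0.00 for 1346 at C, 0.01 for 4402 at G and 0.00 for 799 at T. These groups do not hold all of the 60 members with a RefSeq window, nor all of the genes tested. No test was made of the differences between these medians.

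Genes that act with ribosomal proteins were described in the same fit. The lists are to be read against the 2.88% of all genes that rose and the 4.51% that fell with all 6 libraries. Of 44 ribosome biogenesis genes, 2 rose and 0 fell by edgeR (16 at an unadjusted p under 0.05, and by DESeq2 3 rose and by limma-voom 2), with a median log2 fold change of 0.23. Gnl3, the nucleolar GTPase nucleostemin, went from a mean of 40.9 to 54.7 CPM (log2 fold change 0.42, adjusted p = 0.0366), and Ddx21, a nucleolar RNA helicase, from 118 to 153 CPM (0.38, adjusted p = 0.0441). Without WT replicate 3, where 11.1% of all genes rose and 10.4% fell, 16 of the 44 rose and 0 fell (26 at an unadjusted p under 0.05), and the median was 0.22. Unlike that of the ribosomal protein genes, this median kept its sign and size without WT replicate 3. Of 16 p53 and nucleolar stress genes, 1 rose: Mdm2, which holds p53 down, went from 179 to 268 CPM (0.58, adjusted p = 0.0195), and 2 rose by DESeq2 and 1 by limma-voom. Without WT replicate 3, 4 of the 16 rose and 1 fell, to be read against the same 11.1% and 10.4%. Of 22 genes of mTORC1, Myc and TOP regulation, 1 fell, near the share over all genes: the Myc antagonist Mxi1 went from 39.5 to 27.5 CPM (-0.53, adjusted p = 0.0446). DESeq2 called 2 of the 22 lower and limma-voom 0, and without WT replicate 3, 4 fell and 5 rose by edgeR, where 10.4% and 11.1% of all genes did.

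In the remaining lists edgeR called 0 genes with all 6 libraries. These were 7 ribosome-related genes with other symbols, not counting Rps3a1 (0 at an unadjusted p under 0.05), and 18 translation factors (2). Also among them were 20 RNA polymerase I genes (0), 77 mitochondrial ribosomal proteins (2) and 11 mitochondrially encoded genes (0). DESeq2 called 1 mitochondrial ribosomal protein higher and none of the others, and limma-voom called none. Their median log2 fold changes were 0.18, -0.03, 0.07, 0.09 and -0.50, and -0.02, -0.01, -0.01, -0.01 and 0.14 without WT replicate 3. In that fit edgeR called 1 translation factor lower and 2 higher, 1 RNA polymerase I gene lower, and 1 mitochondrial ribosomal protein lower and 1 higher, and 0 genes of the other pair of lists (0 at an unadjusted p under 0.05 in both). Of 20 proliferation genes 1 fell (11 at an unadjusted p under 0.05, and 5 by DESeq2 and 1 by limma-voom), and 12 fell without WT replicate 3 (10.4% of all genes), with Ccnb1 going from 19.3 to 13.5 CPM (-0.52, adjusted p = 0.0347). Among the cell type markers, 3 of 6 osteoblast genes fell, 3 of 8 mesenchymal genes fell and 3 rose, 3 of 5 adipocyte genes fell, the 1 neutrophil gene tested rose, and of 8 macrophage and 5 endothelial genes edgeR called 0 (2 and 1 at an unadjusted p under 0.05, and 1 higher and 1 lower respectively by DESeq2, 0 by limma-voom). Without WT replicate 3 edgeR called 3 osteoblast genes lower and 1 higher, 4 mesenchymal genes lower and 4 higher, 3 adipocyte genes lower and 2 higher, 1 macrophage gene lower and 2 higher, 1 endothelial gene lower and 1 neutrophil gene higher. With all 6 libraries DESeq2 also called 1 adipocyte gene higher. The part of a change in cell types in the values of the ribosomal protein genes was not tested.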

How the data were processed

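Poly(A) RNA of MSCs was sequenced in 3 WT and 3 CKO libraries. The authors deposited raw counts of reads per gene, not normalized. The paper's methods and the submitters' processing notes name HISAT2, mm10, FastQC and DESeq2. The counting tool, annotation, strand and treatment of multiply mapped reads are not given in the sources used here. Of 20163 rows, 92 repeat an ID with equal counts, so 20071 IDs were used. The deposited design text speaks of duplicates, and the labels give 3 libraries per genotype. No pair of libraries of a genotype agreed within sampling noise (chi-square per degree of freedom of at least 2.86 over the genes tested).

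Counts were tested with edgeR 4.0.16 in R 4.3.3 (filterByExpr, TMM, glmQLFit, glmQLFTest) on 13733 genes, with Benjamini-Hochberg adjustment and a threshold of 0.05. Standard errors are the log2 fold change over the square root of F. Coordinates, coding lengths and overlaps are from GENCODE M21 on GRCm38, which held 20059 IDs, and RefSeq windows were matched by symbol. DESeq2 1.42.0, limma 3.58.1 and other alternatives were run. The fits were tested on simulated data, where edgeR recovered 192 of 192 changed genes and called 7 others. The simulated log2 changes were of 2, larger than that of any member tested, and no library was made to stand apart. That test therefore does not show how the fits treat smaller changes or a library such as WT replicate 3. The symbol pattern for mitochondrially encoded genes matched no row, so genes on the mitochondrial chromosome were taken.

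The members and lists were chosen with earlier results of these data known. Named members are Rplp0, Rplp1, Rplp2, 10 genes of known roles, those called, the 6 highest and 5 lowest by mean CPM, symbols ending in l, and the 3 lowest and 3 highest in WT replicate 3, and of the other lists up to 4 genes with the smallest p-values. Depth limits Rpl24, Rpl32l, Rpl3l and Rps10, and intervals cover counting error only.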

Additional observations from a re-analysis of the deposited data

How the results depend on the processing

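WT replicate 3 decided most values. Leaving out 1 library in turn gave 0 to 2 members lower and 0 to 2 higher in CKO (2 to 9 at an unadjusted p under 0.05, and 2.32% to 10.4% of all genes called lower and 1.06% to 11.1% higher), a median log2 fold change of -0.036 to 0.36, 2 to 15 members with every CKO library below every WT library and 7 to 36 with every one above (18.3% to 24.3% and 18.1% to 24.4% of all genes tested), and a share difference, CKO minus WT, of -0.143 to 0.425 percentage points. The lowest median and share and the 15 came without WT replicate 3, and the highest median and share and the 36 without WT replicate 1. Among the members named by rule, the log2 fold changes that changed sign when 1 library was left out ranged from -0.067 to 0.40 for Rpl10, -0.041 to 0.47 for Rpl11, -0.077 to 0.35 for Rpl22, -0.14 to 0.28 for Rpl3, -0.099 to 0.010 for Rpl6l, -0.13 to 0.20 for Rplp0, -0.024 to 0.73 for Rplp1, -0.023 to 0.37 for Rps10, -0.13 to 0.61 for Rps14, -0.083 to 0.73 for Rps16, -0.013 to 0.82 for Rps19, -0.035 to 0.29 for Rps4x and -0.037 to 0.16 for Rpsa. Over 18 alternatives, that of Rpl39l stayed between 0.74 and 1.35 (adjusted p 0.000255 to 0.170, called in 11) and that of Rps4l between -0.69 and -0.46 (0.000413 to 0.161, called in 13).

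Total-count scaling, scaling without mitochondrially encoded genes and the use of every deposited row each left 0 members higher (2 at an unadjusted p under 0.05, and 2.59% to 2.84% of all genes called higher), as Rpl39l then had adjusted p-values of 0.0576, 0.05004 and 0.0505. Without the 6 paralogs ending in l, 0 members were called in either direction and 1 lay below every WT library, by construction. With a correction for transcript length and GC content, 4 of 79 members lay below every WT library (13.7% of all genes). That correction without WT replicate 3, chosen after seeing the data, gave 3 members lower, 1 higher and 16 below every WT library (9.20%, 15.0% and 20.2% of all genes) and a median of -0.027, with log2 fold changes of -0.048 for Rpl10, -0.035 for Rpl22, 0.045 for Rpl29, -0.079 for Rpl3, -0.010 for Rpl5, -0.054 for Rplp0, -0.0046 for Rplp1, -0.12 for Rps14, -0.041 for Rps16 and -0.026 for Rps4x. The share of WT replicate 3 minus that of the others was -1.24 percentage points when the 100 most abundant other genes were left out of the total and -0.648 without Rplp1, Rplp2 and the 10 most abundant members, both changes being of the share's own construction. It was highest of 6 in 2 members with RLE scaling or without mitochondrially encoded genes, and in 14 with the length and GC correction, added after seeing the data.

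With the replicate number as a block, 1 of 79 members was lower and 1 higher (3.66% and 1.94% of all genes), with a median of 0.21. The numbers gave no sign of pairing: deviations of same-numbered libraries correlated at -0.050 to 0.064, and the replicate block is therefore only an alternative. DESeq2 and limma-voom each called 1 member lower and 1 higher, against 4.13% and 2.96% of all genes by DESeq2 and 4.20% and 2.85% by limma-voom.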
